A study of Mus musculus with 2 samples.

Results

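Rab proteins are small GTPases that give each intracellular membrane its identity, and the genes of this family were described in CD11b+ cells of mouse tumours. The members were all genes whose symbol is Rab, a digit, further digits and at most 1 letter, and that the GENCODE annotation (release M21, GRCm38) lists as protein-coding. This gave 59 genes among the 49585 in the count table. Genes for Rab partners, such as Rab11fip1 or Rab3gap1, were left out of the family and are described separately.

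Cells carrying CD11b, an integrin of monocytes, macrophages, granulocytes and some dendritic cells, were isolated with magnetic beads. The tumours came from pancreatic cancer lines of the mouse implanted under the skin. Both groups were of genotype NRP2f/fCSF1R-iCRE on a BL6 background: Nrp2 is floxed, and a tamoxifen-inducible Cre recombinase is driven by the promoter of Csf1r, a receptor gene of monocytes and macrophages. The control group is labelled only as control. The knockout group received tamoxifen daily by intraperitoneal injection once tumours were palpable, and tumours were harvested after 15 days. The labels name no vehicle for the controls and no age, so tamoxifen and the loss of Nrp2 cannot be told apart. RNA of 3 animals was pooled into 1 library per group, so there are no replicates: differences are given by size, without a test.

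A Rab protein cycles between a GTP-bound form, which sits on a membrane and recruits effectors such as tethers and motors, and a GDP-bound form that can be pulled off the membrane. Exchange factors load GTP, GTPase-activating proteins (GAPs) trigger its hydrolysis, and GDI proteins carry the GDP-bound form through the cytosol. In phagocytes, Rab5 acts on the early endosome and the new phagosome. It is replaced by Rab7 as the compartment matures and fuses with lysosomes, which is how engulfed dead cells are degraded.

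The Rab genes encode short proteins, with a median coding length of 645 bases, from 582 for Rab22a to 2175 for Rab44. Rab proteins hold to membranes by lipids attached to cysteines at their end, so the last 30 coding bases before the stop codon are shown for members on which the results below turn. Capitals mark the cysteine codons TGC and TGT, and the sequences are from GRCm38 on the coding strand.
Rab7 (chr6:88000438-88000467, minus strand): gccaaggcctccgcagaaagcTGCagtTGT
Rab12 (chr17:66495693-66495722, minus strand): cctcctcccagaccacacgtccgaTGCTGT
Rab15 (chr12:76800246-76800275, minus strand): ccagcaaactcttcaaagaccTGCtggTGC
Rab20 (chr8:11454000-11454029, minus strand): cccaaacagactagatccgggTGTTGTgcc
Rab24 (chr13:55320153-55320182, minus strand): aacccttacttctacagcTGTTGTcatcac
Rab13 (chr3:90225551-90225580, plus strand): gacaagaagaagaacaagTGCttgttaggc
Rab28 (chr5:41625773-41625802, minus strand): cctcctcggagctccatgTGTgcagtgcag

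The first 5 of these end in a pair of cysteine codons, adjacent or with 1 codon between them, and Rab13 and Rab28 end in a single one followed by 3 other codons. Over the family, 50 members had 2 cysteine codons among the last 5 and 9 had 1. The median log2 ratio, knockout over control, was -0.05 over the 41 members with a cysteine pair and at least 50 reads. It was 0.09 over the 8 such members with a single cysteine codon (Rab8a, Rab8b, Rab13, Rab18, Rab23, Rab28, Rab38 and Rab40c). Higher and lower members were found in both classes, 19 and 22 with a pair and 5 and 3 with a single codon.

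A second stretch carries the codon for the glutamine that takes part in GTP hydrolysis. It is shown for a pair of typical members and for the members where this codon differs, with that codon in capitals.
Rab7: tgggacacagccggtCAAgaa
Rab5c: tgggacacagctggcCAAgag
Rab20: tgggacaccgcagggCGGgag
Rab24: tgggacacagcaggtTCCgag
Rab25: tgggacacggccggcCTGgag

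The glutamine codon was present in 56 members, and Rab20, Rab24 and Rab25 were the 3 without it. Of these 3, Rab25 had 16 reads in all. The other 2, Rab20 and Rab24, were both lower in the knockout library, with the values and their limits given below. So were 23 of the 47 members with the glutamine codon and at least 50 reads. The part of this codon in the values was not tested.

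Counted reads numbered 64153676 in the control and 68554172 in the knockout library, and 16257 and 17566 genes had at least 1 read. Reads came in clumps: genes of over 4 reads that the other library lacked had 47 reads at the median in the control and 24 in the knockout. Each ratio is therefore given with a 95% exact Clopper-Pearson interval on counts divided by these values, which covers counting error only. The floor for a gene without reads is 3 fragments, which is 141 control reads or 72 knockout reads. Levels are CPM, counts scaled to a common library size, and levels of different genes are compared only per kb of exon length. Nrp2, the targeted gene, had 9686 reads in the control and 1017 in the knockout library, 148 and 15.2 CPM, and was 9.72-fold lower (6.95 to 13.9).

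All 15 macrophage markers were present, 9 of them higher and 6 lower in the knockout library, such as Aif1 (416 and 161 CPM) and Adgre1 (711 and 518 CPM). Their sum was 27486 CPM in the control and 34694 CPM in the knockout, and Apoe alone went from 12399 to 18685 CPM. The libraries also differed in other cells' markers, whose part in the Rab values was not tested. All 10 dendritic cell markers were lower in the knockout library (summed 809 and 458 CPM, Xcr1 at 0 in the knockout), as were 7 of 8 NK cell markers (134 and 45.1 CPM), 10 of 11 T cell markers (264 and 158 CPM) and 6 of 7 B cell markers (201 and 21.4 CPM, Pax5 at 0 in the knockout). The interval lay wholly below 1 for 7 of the 10 dendritic cell markers and 5 of the 8 NK cell markers. It did so for 10 of the 11 T cell markers, with 1 wholly above 1, and for 3 of the 7 B cell markers. Of all 14420 genes with at least 50 reads, 7303 were lower and 1558 were at least 2-fold higher. The interval lay wholly below 1 for 1595 of the 14420 and wholly above 1 for 1812. Monocyte markers were mixed, 4 higher and 6 lower, and their sum went from 3245 to 10634 CPM, mostly through Chil3 (338 and 6067 CPM). Neutrophil markers were mixed too: their sum was 1407 and 1447 CPM, with 5 of 11 at least 2-fold higher, such as Ngp (2 and 1033 reads) and Lcn2 (3.9 and 36.8 CPM), and Mmp9 3.05-fold lower (389 and 128 CPM). Ly6g, Camp and Elane were at 0 in the control. The 7 adipocyte markers with at least 50 reads were all higher (13.5 and 115 CPM over the list), with Adipoq, Plin1 and Retn at 0 in the control and Lep at 0 in both. The interval lay wholly above 1 for 4 of the 7. Of the markers at 0 in one library, Xcr1 and Pax5 had 111 and 56 reads in the control and Camp and Elane had 18 and 51 in the knockout, which is under the floor of that library. In pooled bulk RNA, fewer cells of a type and less RNA per cell cannot be told apart.

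Rab genes were broadly present in these cells. Of the 59 members, 35 (59.3%) had at least 1000 reads over both libraries, 14 had 50 to under 1000, and 10 had fewer than 50. All 59 together held 253742 reads, 0.396% of the control library, and 264740 reads, 0.386% of the knockout library. Their summed level was 3865 CPM in the control and 3952 CPM in the knockout, a ratio of 1.02, so the family as a whole was at nearly the same level.

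Per kb of exon, Rab5c of the early endosome was the highest member, with a mean of 200 CPM per kb over both libraries. Rab7 of the late endosome followed with 184, then Rab20 of the phagosome with 83.7, Rab1a with 78.6 and Rab1b with 72. The order of the top pair differed between the libraries. Rab5c was at 201 CPM per kb and Rab7 at 155 in the control, while in the knockout library Rab5c was at 199 and Rab7 at 213.

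**Figure D1:**
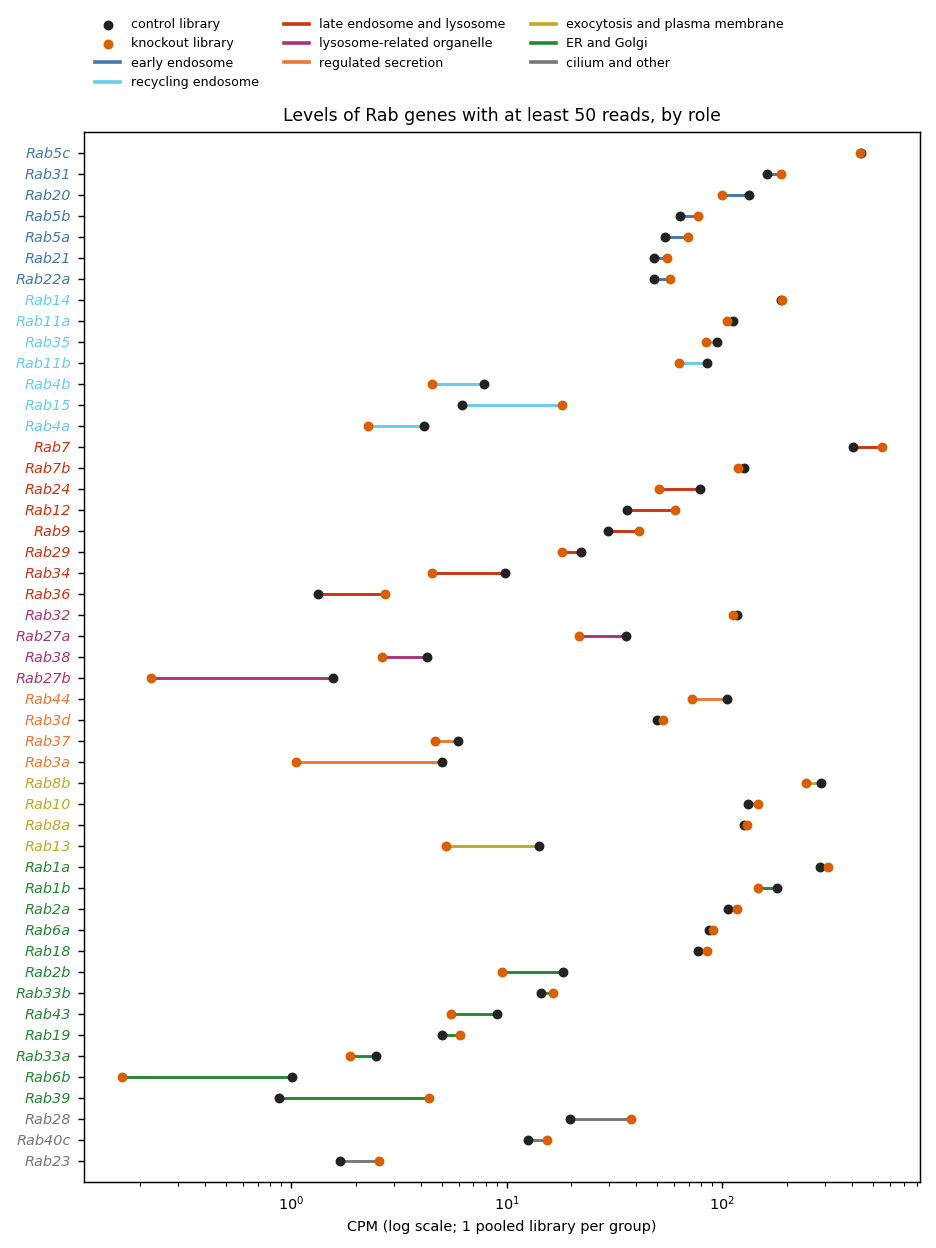
Level of each of the 49 Rab genes with at least 50 reads, in CPM on a log axis, grouped by role, with a black point for the control and an orange point for the knockout library and a line joining them. The axis is not per length, so points are to be compared within a gene: the 2 points of Rab5c, at 442 and 437 CPM, lie on each other, those of Rab7, at 404 and 555 CPM, lie apart, and the widest gaps are in genes with few reads such as Rab6b and Rab27b.

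Most well-read Rab genes differed little. Among the 35 with at least 1000 reads, 22 (62.9%) lay within 1.25-fold between the libraries, against 49.3% of all genes with as many reads. The median absolute log2 ratio was 0.25 for these members and 0.33 for all such genes. Read depth above the minimum was not matched between them: 26 of the 35 members had at least 5000 reads. Of the 35, 3 were at least 1.5-fold higher in the knockout library, namely Rab12, Rab28 and Rab15 (8.57%, against 14.6% of all genes). At least 1.5-fold lower were 4, namely Rab13, Rab2b, Rab27a and Rab24 (11.4%, against 11.3% of all genes). The first share was under the background and the second at it.

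The interval lay wholly above 1 for 4 of the 35 (11.4%), namely Rab7, Rab12, Rab28 and Rab15, where 18.7% of all genes had such an interval. It lay wholly below 1 for 9 (25.7%), where the background was 15.2%, and these were Rab1b, Rab2b, Rab8b, Rab11b, Rab13, Rab20, Rab24, Rab27a and Rab44. These counts rest on the estimated reads per fragment, which cannot be checked without molecular identifiers. On undivided reads 18 members' intervals lay above 1 and 13 below, so the balance of directions among the members turned. Such an interval included 1 for 4 of the 35 members and for 1196 of all 9054 genes. The split by direction over all genes was not computed. Among the 49 members with at least 50 reads, 3 were at least 2-fold higher (6.12%, background 10.8%) and 5 at least 2-fold lower (10.2%, background 14.7%). The median log2 ratio was -0.02 over these 49 and 0.07 over the 35, beside -0.01 and 0.04 for all genes past the same read minimum. It therefore turned sign with the read minimum and lay near 0 in both.

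Transcript length and base composition moved with the ratio across all genes. Over genes with at least 1000 reads the median log2 ratio went from -0.13 in the lowest quartile of exon length to 0.21 in the highest, and from 0.17 in the lowest quartile of GC content to -0.05 in the highest. With the trend on both taken off, a step chosen after the data were seen, Rab24 was no longer past 1.5-fold (ratio 0.732) and Rab9 reached it (1.5). No member whose interval excludes 1 changed direction. Ratios less this trend are given below for some members, among them the 3 that moved most (Rab14, Rab20 and Rab29).

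**Figure D2:**
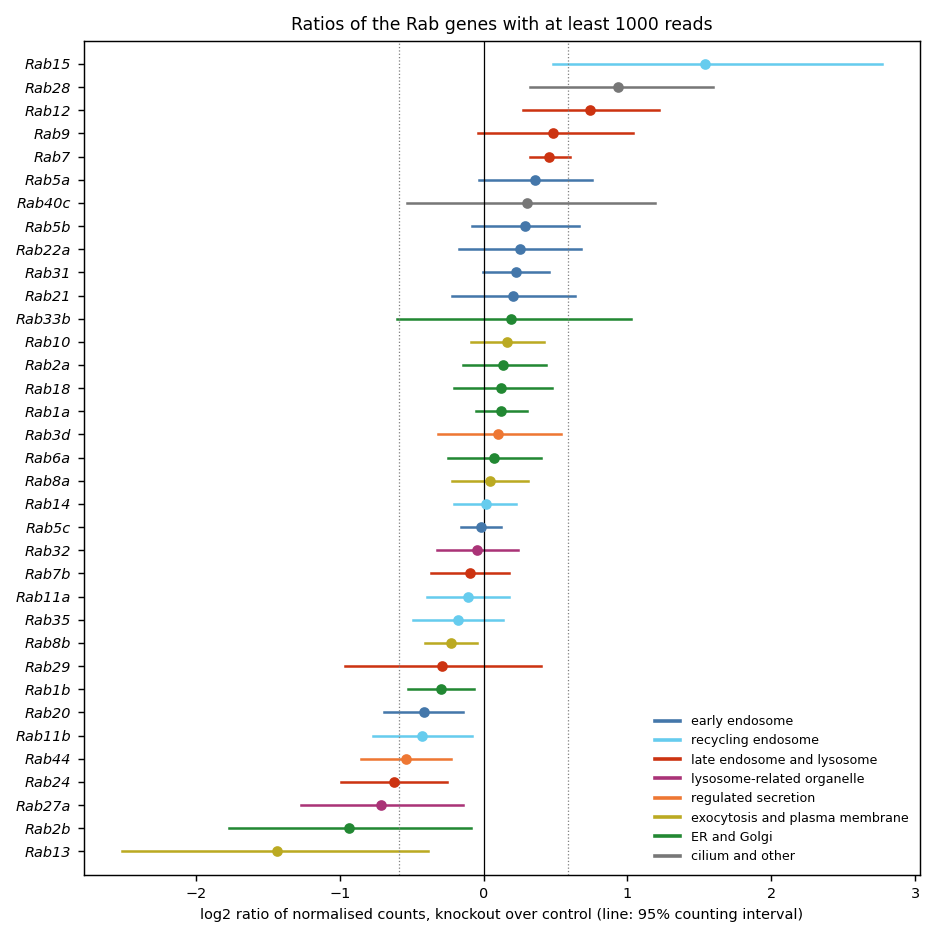
Log2 ratio, knockout over control, of the 35 Rab genes with at least 1000 reads, ordered by ratio and coloured by role, with the 95% counting interval as a line and dotted lines at 1.5-fold. Rab7, Rab12, Rab15 and Rab28 have intervals wholly above 0, and 9 genes have intervals wholly below 0.

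Early endosome Rabs direct the first fusions after uptake, and 5 of the 7 detected members had a ratio above 1. Of all 9054 genes with at least 1000 reads, 4825 had a ratio above 1. Rab5c, which drives early endosome fusion and recruits the lipid kinase Vps34, was at 442 CPM in the control and 437 in the knockout, a ratio of 0.989 (0.897 to 1.09). Its paralogue Rab5a was at 54.5 and 69.8 CPM, 1.28-fold higher (0.978 to 1.69). Rab5b was at 63.7 and 77.5 CPM, 1.22-fold higher (0.947 to 1.58). All 3 Rab5 intervals include 1. For Rab5c, taking off the length and GC trend gave 1.12, just outside its interval.

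Rab31, which acts between the Golgi and early endosomes, was at 161 and 188 CPM, a ratio of 1.17 (0.995 to 1.37). Its relative Rab22a was at 48.2 and 57.2 CPM, 1.19-fold higher (0.887 to 1.6). Rab21, a regulator of integrin uptake, was at 48.3 and 55.4 CPM, 1.15-fold higher (0.857 to 1.55). These were small differences within counting error. Rab17, known from polarised epithelia, had no read in either library.

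Rab20, which acts on maturing phagosomes in macrophages, was the early endosome member with the ratio farthest from 1, on the lower side, before the length and GC trend was taken off, and no longer so after it. It lies on chromosome 8 from 11453518 to 11478710 on the minus strand (GRCm38) and is 1 of the 3 members without the glutamine codon. It had 8746 reads in the control and 6685 in the knockout, 133 and 99.8 CPM, and was 1.33-fold lower (1.1 to 1.61). Less the length and GC trend its ratio was 0.878. An opposite-strand gene, E230013L22Rik, covers 25.6% of its exon length and had 205 and 277 reads. Over the early endosome group the summed level was 951 CPM in the control and 984 in the knockout.

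Late endosome and lysosome Rabs had the largest difference in summed CPM of the groups, though not the largest fold. Rab7, which directs fusion of late endosomes and phagosomes with lysosomes, lies on chromosome 6 from 87999106 to 88045270 on the minus strand. It had 26517 reads in the control and 37168 in the knockout, 404 and 555 CPM, and was 1.37-fold higher (1.25 to 1.52). Less the length and GC trend it was 1.49-fold higher. Its share of all Rab reads went from 10.5% to 14%, while that of Rab5c was 11.4% and 11.1%. The group's summed level was 709 and 853 CPM, 1.2-fold higher, a difference no larger than that of Rab7 alone.

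Rab12, which sends cargo from recycling endosomes to lysosomes, was at 36.3 and 60.7 CPM, 1.67-fold higher (1.21 to 2.33). Rab9, which acts in transport from late endosomes to the trans-Golgi network, was at 29.6 and 41.4 CPM, 1.4-fold higher, with an interval of 0.973 to 2.05 that includes 1. Rab7b, a paralogue of Rab7, did not share its ratio. It was at 127 and 119 CPM, a ratio of 0.936 (0.777 to 1.13).

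Rab24, a member linked to autophagy, was at 79 and 51.2 CPM, 1.54-fold lower (1.19 to 1.99). The sources do not say if reads were counted by strand, and the opposite-strand gene Prelid1 covers 62.4% of the exon length of Rab24. Prelid1 had 19851 reads in the control and 16355 in the knockout and was 1.24-fold lower, so the Rab24 reads are uncertain. Rab29, which acts at the Golgi and on stressed lysosomes, was at 22.2 and 18.1 CPM, a ratio of 0.817 (0.512 to 1.32), and of 0.951 less the length and GC trend.

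Low-level members of this group rested on few fragments. Rab34, which positions lysosomes and acts in ciliogenesis, had 649 reads in the control and 301 in the knockout, 2.2-fold lower (0.949 to 5.15). Its relative Rab36 had 88 and 182 reads, 2.03-fold higher (0.384 to 21.9). Both intervals include 1. Rab42 had 0 and 28 reads, under the floor, and Rab9b had none.

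Recycling endosome Rabs return receptors to the plasma membrane, and 5 of the 7 members with at least 50 reads had a ratio below 1. So did 7303 of all 14420 genes with at least 50 reads. Rab14, of the recycling endosome and the phagosome, was at 187 and 189 CPM, a ratio of 1.01 (0.867 to 1.17) whose direction turned with the scaling (log2 ratio from -0.06 to 0.02). Less the length and GC trend it was 0.825, outside its interval. Rab11a, the main slow recycling Rab, was at 113 and 105 CPM, a ratio of 0.928 (0.762 to 1.13). Rab11b was at 85.2 and 63.4 CPM, 1.34-fold lower (1.06 to 1.7).

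Rab35, of the fast recycling route, was at 95.1 and 84.1 CPM, a ratio of 0.885 (0.712 to 1.1). The fast recycling pair Rab4a and Rab4b was at low levels and lower in the knockout library, within counting error. Rab4a had 272 and 152 reads, 1.83-fold lower (0.486 to 6.71), and Rab4b had 515 and 302 reads, 1.74-fold lower (0.701 to 4.25). An overlapping same-strand gene, Gm21983, shares 65% of the Rab4b exon length and had no reads. The sources do not say how reads over shared exons were counted, so the Rab4b reads are uncertain.

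Rab15, a regulator of recycling best known from neurons, went the other way. It lies on chromosome 12 from 76797960 to 76822908 on the minus strand and had 408 reads in the control and 1206 in the knockout. At 6.21 and 18 CPM it was 2.9-fold higher (1.4 to 6.81), the largest ratio among the well-read members. Rab25, of epithelial recycling endosomes, had 0 and 16 reads. The group's summed level was 498 CPM in the control and 466 in the knockout.

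Rabs of lysosome-related organelles, such as melanosomes and the granules of cytotoxic cells, all had a ratio below 1. Of all 14420 genes with at least 50 reads, 7303 had a ratio below 1. Rab32, which also acts on phagosomes and mitochondria in macrophages, was close to equal at 117 and 113 CPM, a ratio of 0.969 (0.8 to 1.18). Rab27a, needed for the docking of cytotoxic and other secretory granules, was at 35.7 and 21.8 CPM, 1.64-fold lower (1.1 to 2.42). The NK cell marker sum was also lower, 134 and 45.1 CPM, and its part in the Rab27a value was not tested. Rab38 had 280 and 176 reads, 1.62-fold lower (0.454 to 5.54), and Rab27b had 103 and 15 reads, 7.01-fold lower on few fragments with an interval that includes 1.

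Rabs of regulated secretion were led by Rab44, a large member known from mast cells and osteoclasts. Rab44 was at 105 and 72.4 CPM, 1.45-fold lower (1.17 to 1.81). The mast cell and basophil marker sum was 32.5 and 32.4 CPM, and the part of these cells in the Rab44 value was not tested. Of the 7 such markers with at least 50 reads 4 were higher, such as Tpsab1 (0.868 and 5.66 CPM), and 3 lower, such as Kit (19 and 10.8 CPM), and Ms4a2 had 0 and 27 reads, under the floor. Rab3d, of secretory granules, was at 49.7 and 53.5 CPM, a ratio of 1.07 (0.803 to 1.45). Rab3a, a synaptic vesicle Rab, had 331 reads in the control and 71 in the knockout, 4.76-fold lower (1.08 to 28.9). Rab37 had 391 and 312 reads, a ratio of 0.782 (0.303 to 2.14). Rab26 had 0 and 9 reads, and Rab3b and Rab3c had none in either library.

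Rabs of exocytosis and plasma membrane delivery fell into a close group and 1 exception. Rab8b was at 287 and 245 CPM, 1.17-fold lower (1.03 to 1.33). Rab8a, which moves vesicles to the cell surface, was at 127 and 130 CPM, a ratio of 1.03 (0.858 to 1.24) that lay on either side of 1 under other scalings (log2 ratio from -0.02 to 0.06). Rab10, of surface delivery and macropinosomes, was at 132 and 147 CPM, 1.12-fold higher (0.939 to 1.34). Rab13, which acts at epithelial tight junctions, was the exception at 14.1 and 5.24 CPM, 2.7-fold lower (1.3 to 5.72).

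Rab13 lies on chromosome 3 from 90213695 to 90226385 on the plus strand and had 929 and 351 reads. Markers of cells known for tight junctions were also lower. Of the 8 epithelial markers with at least 50 reads, 7 had a ratio below 1 (summed 196 and 130 CPM, with Cldn4 and Cldn7 at 0 in both libraries). All 8 endothelial markers were lower (89.6 and 22.4 CPM, with Sox17 at 85 control reads, under the floor, and 0 in the knockout). The interval lay wholly below 1 for 3 of the 8 epithelial and 4 of the 8 endothelial markers. Of all 14420 genes with at least 50 reads, 7303 had a ratio below 1 and 1595 an interval wholly below 1. The part of epithelial and endothelial cells in the Rab13 value was not tested.

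ER and Golgi Rabs, which serve the secretory route used by every cell, were mostly near equal. Rab1a, of transport from the endoplasmic reticulum to the Golgi, was at 286 and 311 CPM, 1.09-fold higher (0.966 to 1.23). Its paralogue Rab1b was at 180 and 147 CPM, 1.23-fold lower (1.05 to 1.44), and at a ratio of 0.905 less the length and GC trend. Rab2a, of the ER to Golgi intermediate compartment, was at 107 and 118 CPM, 1.1-fold higher (0.905 to 1.35). Its paralogue Rab2b was at 18.2 and 9.55 CPM, 1.91-fold lower (1.06 to 3.41). The opposite-strand gene Gm43766, without reads in either library, covers 59.3% of the Rab2b exon length. Tox4, also on the opposite strand, covers 4.68% and had 6773 and 6897 reads.

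Rab6a, of retrograde Golgi transport, was at 86.9 and 91.3 CPM, a ratio of 1.05 (0.843 to 1.32). The opposite-strand gene Mrpl48, with 1558 and 2133 reads, covers 19% of its exon length. Rab18, of lipid droplets and the endoplasmic reticulum, was at 77.6 and 84.9 CPM, 1.09-fold higher (0.868 to 1.39). Rab33b, a Golgi Rab with a part in autophagy, was at 14.4 and 16.4 CPM, 1.14-fold higher (0.66 to 2.03). None of these 3 differed beyond counting error. Rab43, most of whose exon length (75.4%) is shared with the same-strand gene Gm45140, had 594 and 371 reads, a ratio of 0.612 (0.272 to 1.4). The Rab43 reads are uncertain too, since the counting of reads over shared exons is not stated.

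The remaining Golgi members were rare. Rab39, linked to phagosome acidification in macrophages, had 58 reads in the control and 292 in the knockout, 4.93-fold higher (0.837 to 117). Rab6b had 66 and 11 reads, Rab19 had 328 and 407, and Rab33a had 163 and 125. Each of these intervals includes 1. Rab30 had 0 and 5 reads and Rab39b had none.

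Among members of other roles, Rab28, a ciliary Rab, was at 19.7 and 37.7 CPM, 1.91-fold higher (1.25 to 3.02). It lies on chromosome 5 from 41624976 to 41708157 on the minus strand and had 1296 and 2524 reads. Rab40c, part of a ubiquitin ligase, was at 12.6 and 15.4 CPM, 1.23-fold higher (0.691 to 2.28). Rab23, a regulator of Hedgehog signalling at the cilium, had 110 and 172 reads, 1.53-fold higher (0.317 to 12.1). Rab40b had 0 and 33 reads. This was the group with the highest median log2 ratio, 0.61 over 3 members, of which Rab28 alone had an interval that excludes 1.

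**Figure D3:**
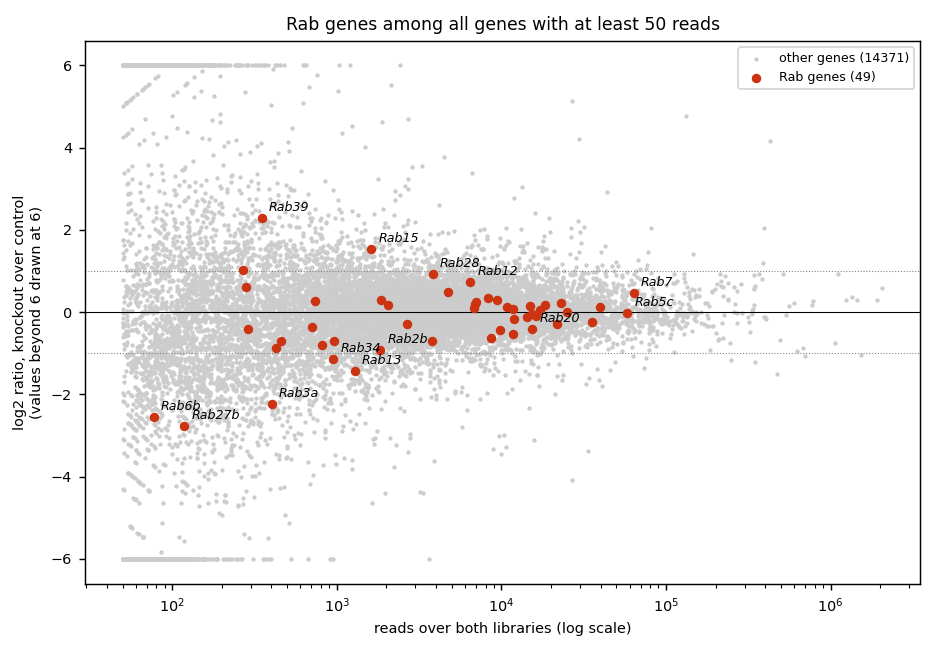
Log2 ratio, knockout over control, against the reads over both libraries on a log axis, with the 49 Rab genes of at least 50 reads in red, all other such genes in grey and dotted lines at 2-fold. The spread narrows as reads rise, and most Rab genes with at least 1000 reads lie near 0.

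Ratios between Rab genes within a library do not depend on the scaling of the libraries. No interval was computed for these ratios between genes. Rab7 had 0.914 reads for each read of Rab5c in the control and 1.27 in the knockout, a change of 1.39-fold. Against Rab5a it had 7.41 and 7.95 reads, a change of 1.07-fold. Rab7 was thus higher against Rab5c and nearly level with Rab5a. For each read of its paralogue Rab7b, Rab7 had 3.18 reads in the control and 4.68 in the knockout.

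Some paralogue pairs moved apart. Rab2a had 5.86 reads for each read of Rab2b in the control and 12.3 in the knockout. Rab1a to Rab1b went from 1.58 to 2.12, and Rab11a to Rab11b from 1.32 to 1.65. Rab8a to Rab13, its relative, went from 8.95 to 24.9. The counting intervals of the single genes overlap for Rab2a and Rab2b and for Rab11a and Rab11b. Less the length and GC trend, Rab1a was at a ratio of 1.06 and Rab1b at 0.905. Other pairs kept or nearly kept their ratio: Rab5a to Rab5b was 0.856 and 0.9, and Rab22a to Rab31 was 0.299 and 0.305. Rab4a to Rab4b was 0.528 and 0.503, and Rab8a to Rab10 was 0.961 and 0.884. The coding sequences of these pairs were 61% (Rab7 and Rab7b) to 76.1% (Rab1a and Rab1b) identical. The longest run of bases shared by such a pair was 38, in Rab1a and Rab1b.

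Promoters were searched for letters bound by regulators of lysosomes and of myeloid cells. The windows were the 250 bases before each start site in the RefSeq promoter table (GRCm38.p6), in which 48 of the 59 members matched with 60 windows. On both strands, the E-box CACGTG, bound by the lysosome regulators TFEB and TFE3 among other factors, was in 5 of these windows (8.33%), beside 6.02% of all 32851 windows. The longer form TCACGTG, which contains it, was in 3 (5%, beside 3.13%). GAGGAAGT, a form of the site of the myeloid factor PU.1, was in 2 (3.33%, beside 2.44%), those of Rab32 and Rab2b. The E-box matches were at Rab5a, Rab20, Rab21, Rab23 and Rab27a, and not in the windows matched for Rab7, Rab12 or Rab15. They are shown for 3 endosomal members, with the E-box in capitals.
Rab5a (chr17:53479127-53479156, plus strand): acccggggatgtCACGTGacttcggccccg
Rab21 (chr10:115315604-115315633, minus strand): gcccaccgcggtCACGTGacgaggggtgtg
Rab20 (chr8:11478669-11478698, minus strand): cggccgggcaccCACGTGgtcgcagggctg

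Of these 3 members, Rab5a and Rab21 had ratios above 1 with intervals that include 1. Rab20 was 1.33-fold lower (1.1 to 1.61), and at a ratio of 0.878 less the length and GC trend. Of the other members with the E-box, Rab23 was 1.53-fold higher with an interval that includes 1. Rab27a was 1.64-fold lower (1.1 to 2.42). The part of the E-box in these values was not tested.

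The genes that load, switch and read Rab proteins were taken from 6 lists written from general knowledge, of which 175 of 179 symbols matched and 167 had at least 50 reads. At least 2-fold higher in the knockout library were 12 of the 167 and at least 2-fold lower were 6, beside the shares of 10.8% and 14.7% over all genes. Their median log2 ratio was 0.15, beside -0.01 for all genes. Among the 143 with at least 1000 reads the median was 0.19, and 0.08 less the length and GC trend, beside 0.04 for all genes in both cases. The median thus moved toward that of all genes when the trend was taken off.

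Genes for lipid attachment and membrane extraction had a median log2 ratio of -0.02 over 10 members, with none past 2-fold. Gdi2, the main GDP dissociation inhibitor, was at 915 and 741 CPM, 1.23-fold lower (1.15 to 1.32). Less the length and GC trend its ratio was 0.688, outside its interval. Rabac1, which releases Rabs from GDI at membranes, was at 79.5 and 104 CPM, 1.31-fold higher (1.05 to 1.64). Chm, the escort protein for lipid attachment, had a ratio of 1.26 (0.777 to 2.09), and Rce1, a protease of prenylated proteins, a ratio of 0.775 (0.507 to 1.2).

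Exchange factors had a median log2 ratio of 0.07 over 49 members. At least 2-fold higher were 4 and lower 1, beside 10.8% and 14.7% of all genes. Dennd4c, an exchange factor for Rab10, was at 27.7 and 94.4 CPM, 3.4-fold higher (2.42 to 4.9). Ric1, part of the exchange factor of Rab6, was at 55 and 130 CPM, 2.36-fold higher (1.84 to 3.06). Als2cl, related to the Rab5 exchange factor alsin, was at 9.85 and 22.2 CPM, 2.25-fold higher (1.24 to 4.38). Trappc11, of the TRAPP complex that acts on Rab1, was at 28.1 and 53.9 CPM, 1.92-fold higher (1.34 to 2.8). Genes of the Mon1 and Ccz1 proteins, which load Rab7, had ratios below 1 with intervals that include 1, while Rab7 was at 1.37 (1.25 to 1.52). Ccz1 was at 79.4 and 76.9 CPM, a ratio of 0.969 (0.767 to 1.23). Mon1a was at 11.2 and 10.5 CPM, 0.943 (0.494 to 1.87), an interval that also holds the ratio of Rab7. Mon1b was at 15.1 and 8.73 CPM, 0.579 (0.31 to 1.09). These 3 were named after their values were seen.

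GAPs had a median log2 ratio of 0.22 over 40 members. At least 2-fold higher were 4 and lower 3, beside 10.8% and 14.7% of all genes. Tbc1d2, a GAP for Rab7, was at 7.04 and 33.4 CPM, 4.74-fold higher (2.45 to 10.3). Usp6nl, a GAP for Rab5, was at 12.4 and 36.5 CPM, 2.95-fold higher (1.76 to 5.23). Tbc1d15, another GAP for Rab7, was at 59.2 and 133 CPM, 2.24-fold higher (1.76 to 2.88). Tbc1d10c, a GAP of lymphocytes and other blood cells, was at 15.7 and 5.15 CPM, 3.05-fold lower (1.5 to 6.39). The T cell marker sum was 264 and 158 CPM, and its part in the Tbc1d10c value was not tested.

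**Figure D4:**
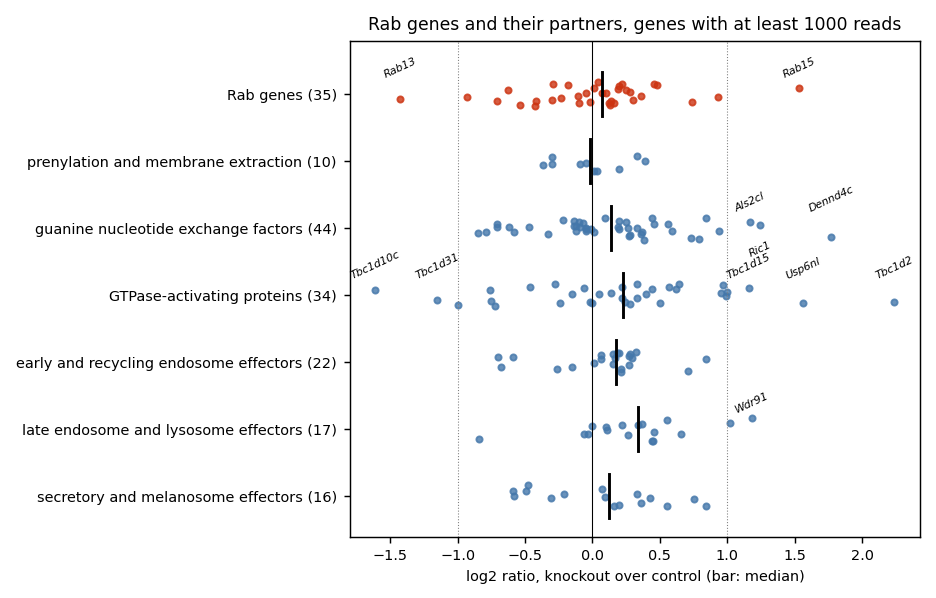
Log2 ratio, knockout over control, of the 35 Rab genes (red) and of genes that act on Rab proteins (blue, 6 lists), 1 point per gene with at least 1000 reads, a bar at each median and dotted lines at 2-fold. The lists' medians lie between -0.02 and 0.34, and the GAPs hold both the highest point, Tbc1d2 at 2.24, and the lowest, Tbc1d10c at -1.61.

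Early and recycling endosome effectors had a median log2 ratio of 0.18 over 25 members. At least 2-fold higher was 1 and none was lower, beside 10.8% and 14.7% of all genes. Eea1, the tether that Rab5 recruits to early endosomes, was at 68 and 122 CPM, 1.79-fold higher (1.42 to 2.27). Acap2, an effector of Rab35, was at 63.5 and 104 CPM, 1.63-fold higher (1.28 to 2.1). Mical1, an actin-oxidising effector, was 1.62-fold lower (1.24 to 2.12), and Ehbp1l1, an effector of Rab8, was 1.6-fold lower (1.34 to 1.91). Less the length and GC trend this list's median over genes with at least 1000 reads was 0.05.

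Late endosome and lysosome effectors had the highest median of the lists, 0.30 over 20 members. At least 2-fold higher were 2 and none was lower, beside 10.8% and 14.7% of all genes. Wdr91, a Rab7 effector that limits PI3-phosphate, was at 47 and 106 CPM, 2.26-fold higher (1.72 to 3). Rubcnl, which promotes autophagosome maturation, was at 12.7 and 25.7 CPM, 2.02-fold higher (1.19 to 3.62). Plekhm2, which links lysosomes to kinesin, was at 80.2 and 127 CPM, 1.58-fold higher (1.27 to 1.97). Rubcn, which restrains endosome maturation and takes part in LC3-associated phagocytosis, was at 35.7 and 20 CPM, 1.79-fold lower (1.19 to 2.67). Over the 17 with at least 1000 reads the median was 0.34, and 0.21 less the length and GC trend.

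Secretory and melanosome effectors had a median log2 ratio of 0.09 over 23 members. At least 2-fold higher was 1 and lower were 2, beside 10.8% and 14.7% of all genes. Myo5a, a motor that Rab27a and Rab11 load onto vesicles, was at 163 and 290 CPM, 1.79-fold higher (1.54 to 2.08). Less the length and GC trend it was 1.46-fold higher, outside its interval. Golga4, a Golgi tether, was at 38 and 64 CPM, 1.68-fold higher (1.23 to 2.33). Unc13d, the granule priming factor that binds Rab27a, was at 52.6 and 35.1 CPM, 1.5-fold lower (1.09 to 2.05). Bloc1s2, of the BLOC complexes, was 1.51-fold lower (0.968 to 2.33). Rab27a and Unc13d were thus both lower while Myo5a was higher. Over the 16 genes of this list with at least 1000 reads the median was 0.13. Less the length and GC trend it was 0.06, with no gene past 1.5-fold.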

How the data were processed

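Per the labels' protocols, the kit was Illumina's TruSeq stranded mRNA. Cutadapt, HISAT2, featureCounts and GRCm38 are named in the submitters' processing notes; versions, options and annotation release are not given there. The authors deposited whole-number read counts per Ensembl gene, with no normalization. The authors also deposited a comparison table with a log2 fold change per gene, used here as an alternative. The normalised signal, score and p-value columns the authors deposited in that table were not used. Of 49585 identifiers, 49326 matched a symbol in GENCODE M21 and 259 did not.

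Counts were scaled with TMM factors (edgeR 4.0.16, R 4.3.3; 1.02 control, 0.977 knockout) into CPM and log2 ratios with a prior of 0.5 counts. Genes needed 50 reads over both libraries for 2-fold counts and 1000 for 1.5-fold counts. Reads per fragment were medians over genes at 0 in the other library that had more than 4 reads (867 control, 2114 knockout). With 1 library per group no test was run. Strand use in counting and the handling of reads over shared exons are not stated, so overlaps on either strand are uncertain. All members with at least 1000 reads are named. Of each partner list the 4 largest absolute ratios among genes with at least 1000 reads are named. The members, lists and rules were chosen with earlier results of these data known. Other scalings, priors, read minimums and length and GC trends were tried.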

Additional observations from a re-analysis of the deposited data

How the results depend on the processing

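Every scaling (DESeq2 size factors, upper quartile, total counts), a prior of 5 counts and the authors' deposited log2 fold changes gave counts within 1.5 times those reported. They shifted the median of all genes by at most 0.067 on the log2 scale. The read minimum mattered more. At least 2-fold higher were 8 Rab genes with no minimum and 1 with 1000 reads; at least 2-fold lower was 1 with 1000 reads. At least 1.5-fold higher were 6 with 50 reads and 1 with 5000, and at least 1.5-fold lower were 12 and 1. The median log2 ratio was 0.06 with no minimum and 0.07 with 1000 reads, against -0.02. On undivided reads 18 Rab intervals lay above 1 and 13 below, and 4 of the 35 included 1, beside 1196 of all 9054 genes. Of 280 gene values, 279 stayed within their interval; the exception was Rab14 (-0.24 less a length trend). With GC content added to the trend, a choice made after seeing the data, Rab14 (-0.28) and Rab5c (0.16) left their interval among the Rab members. No paired analysis was possible because each group has 1 library, which also means that no replicate could be left out. Depth limits the 24 members under 1000 reads, of which Rab3a alone has an interval that excludes 1.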

Other observations

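Rab-like genes outside the family rule were also present. Rabl3, a Rab-like GTPase, had 384 reads in the control and 803 in the knockout library, a ratio of 2.05 (95% interval 0.935 to 5.08). Rabl6 was at 47.8 and 58.6 CPM, a ratio of 1.23 (0.917 to 1.66). Ran, the GTPase of nuclear transport, was at 123 and 103 CPM, a ratio of 0.833 (0.687 to 1.01). Cracr2a, a large GTPase with a Rab domain, had 450 and 868 reads, a ratio of 1.89 (0.909 to 4.35). All 4 intervals include 1.

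Of the antisense genes at Rab loci and at the partner gene Rab11fip4, Rab10os was well read and the others named here were not. Rab10os had 1393 reads in the control and 1085 in the knockout library and overlaps 4.07% of the Rab10 exon length, while Rab10 itself had 8644 and 9875. Rab26os had 0 and 70 reads, under the floor of 72, and Rab11fip4os1 had 0 and 40. The processed pseudogene Rab7-ps1 had 10 and 42 reads beside 26517 and 37168 for Rab7.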
